A study of Mus musculus with 6 samples.

Results

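The genes described here encode enzymes, carriers and channels of peroxisomal oxidation and linked steps, and the Pex proteins that build the peroxisome. Some act outside the peroxisome, such as the cytosolic ACOT1 and ACOT12 and the mitochondrial ACOT2. Members were taken by symbol from the table of each liver, 35 metabolic genes and 12 Pex biogenesis genes, and were kept apart in these groups. Of these 47 genes, 46 were found among 16727 identifiers, 34 of the metabolic genes and all 12 Pex genes, and Ehhadh was not analysed here. The livers came from 6 wild-type F1 males of C57BL/6 background on normal chow, harvested after 7 h of refeeding. The 3 conF1-M males had fathers on normal water, and the 3 iAsF1-M males had fathers given 250 ppb inorganic arsenic (iAs) in drinking water for 6 weeks after weaning. Mothers were unexposed in both groups, and all F1 mice drank normal water. Ages of these mice are not given in the sources used here, nor is the father or litter of each mouse, so a shared father or litter cannot be told apart from the group. The comparison asked how these transcripts differed in the refed male liver with the father's exposure.

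Peroxisomes shorten fatty acids that mitochondria handle poorly: very long chains, branched chains and the side chains of bile acid precursors. Acyl-CoA oxidases pass electrons to oxygen and make hydrogen peroxide, which catalase removes, and the shortened products leave as carnitine esters or, after a thioesterase, as free acids. In the liver the organelle also handles glyoxylate and urate and starts ether lipid synthesis. Matrix proteins are made in the cytosol and are carried in by the receptors PEX5 and PEX7. In rodents many of these genes are targets of the fatty acid receptor PPARα.

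Each value is in FPKM, the fragments of a gene scaled for its length and for the depth of the library, and depth estimated from the steps between low values was 22000000 to 23750000 fragments per liver. Between 53.4% and 58.4% of the low values came within 0.15 of a whole fragment. At a depth fixed in advance 30% would by chance alone, but each depth was chosen as the best fit to these same values. No counts were derived from them. Hepatocyte markers summed to 64149 to 68310 FPKM in conF1-M livers and 55169 to 72166 FPKM in iAsF1-M livers. Of these 12 markers 11 were measured, and 4 of 11 were lower in iAsF1-M livers. The 5 measured of 8 markers of kidney, another tissue rich in peroxisomes, summed to between 0.04 and 0.64 FPKM. Sinusoidal endothelial markers, 8 of 8 measured, summed to 68.7 to 88.3 FPKM in conF1-M livers and 51.8 to 61.7 FPKM in iAsF1-M livers, with 7 of 8 lower. Stellate cell markers, 8 of 8 measured, summed to 154 to 204 FPKM and 133 to 155 FPKM, with 6 of 6 tested lower (median log2 fold change -0.26). Erythroid markers, 6 of 6 measured, summed to 890 to 2514 FPKM and 940 to 1584 FPKM, with 5 of 5 tested lower, and those of macrophages, 8 of 8 measured, to 82.5 to 95.7 FPKM and 49.7 to 130 FPKM, with 6 of 8 lower. The 1 tested marker of cholangiocytes was higher and the 1 of lymphocytes lower. Of all genes tested, 69.6% were lower, and these marker counts were not repeated under other scalings. No measured marker of these types was at 0 in all livers, and their part in the results below was not tested. In bulk liver, fewer cells of a type and less RNA per cell cannot be told apart. Across all genes the liver iAsF1-M 3 was at a mean Euclidean distance (log2 values) of 28.0 from the conF1-M livers and of 35.0 from its own group, the only liver closer to the other group, so results are also given without it.

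Peroxisomal transcripts were abundant and close in level in the groups, and no member passed the test. The 46 genes together summed to 9439, 9120 and 8941 FPKM in the conF1-M livers and to 8749, 9185 and 8904 FPKM in the iAsF1-M livers. The groups overlapped, at means of 9167 ± 252 FPKM and 8946 ± 221 FPKM, or 1.38% ± 0.0753 and 1.35% ± 0.0894 of all FPKM. Here and below, means are given ± the SD over the livers of a group (n = 3). The Pex genes made up a small part of this, 384 ± 33.2 FPKM in conF1-M livers and 372 ± 18.8 FPKM in iAsF1-M livers. Between genes the level spanned a wide range, from Phyh, Scp2 and Cat, none of them under 958.8 FPKM in any liver, to Far1, at most 0.39 FPKM.

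**Figure D1:**
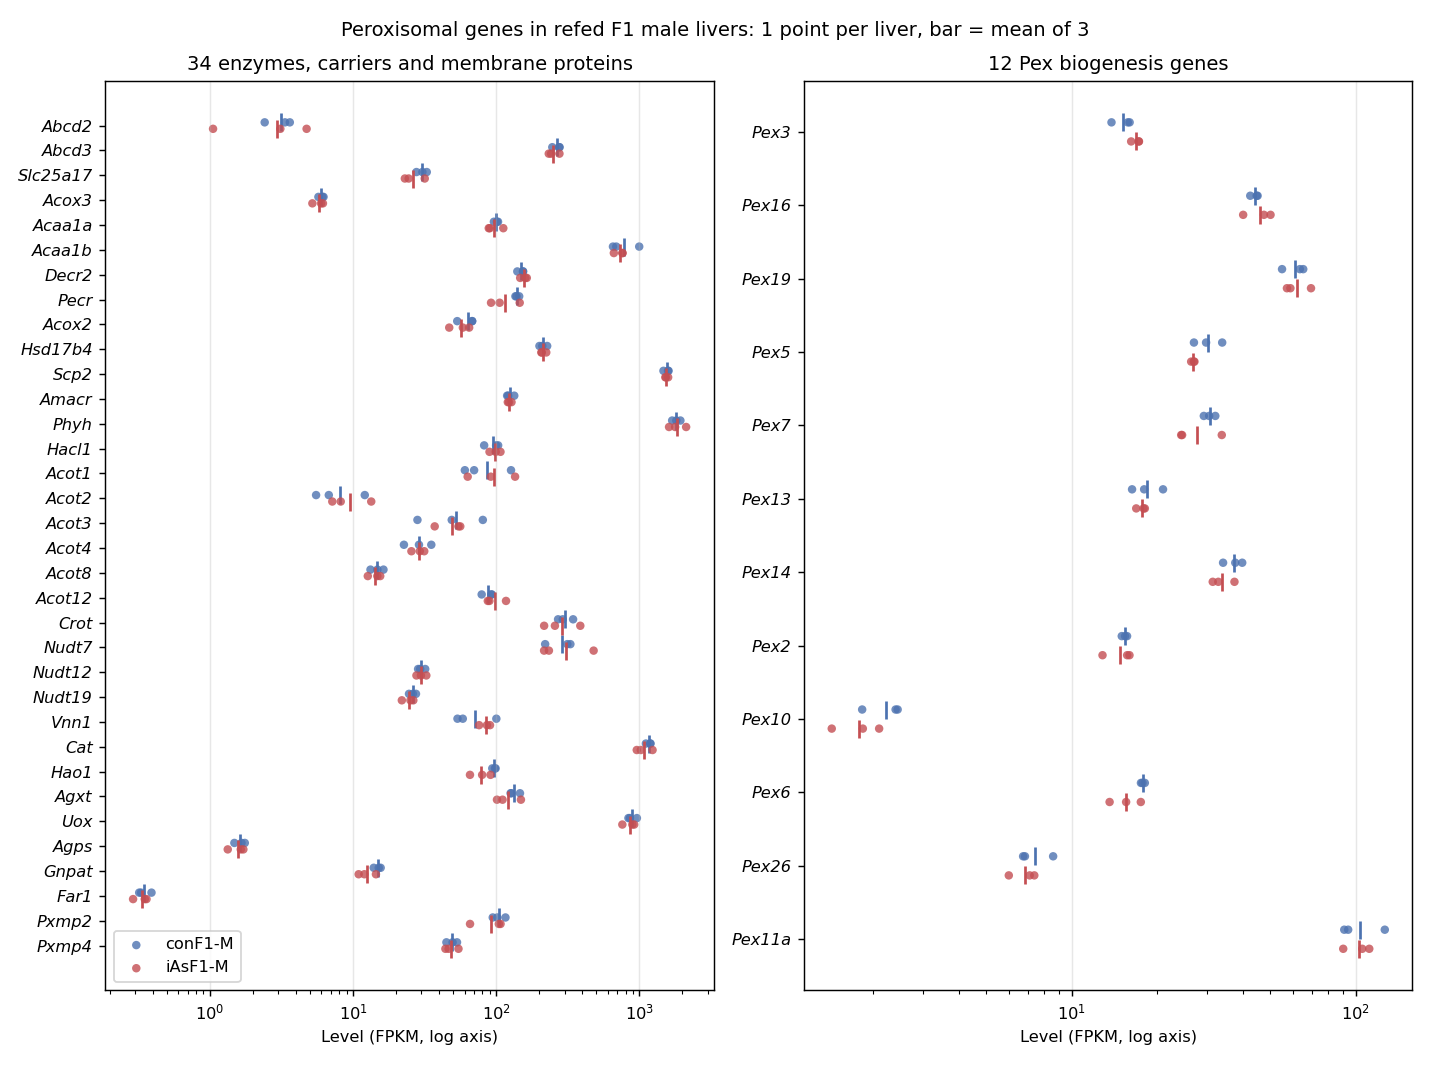
Level of each of the 46 genes in FPKM (log axis), 1 point per liver and a bar at the mean of 3, conF1-M in blue and iAsF1-M in red, in the order of their roles. The groups lie on top of each other for most genes, and Hao1, Pex3 and Pex6 are the genes whose groups do not overlap.

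Differences were tested with limma on log2(FPKM + 1) over 9695 genes averaging 1 FPKM or more, which took in 45 members and left out Far1. At an adjusted p under 0.05, 0 of the 45 members were called, against 0.0619% of all genes tested (6 genes). At an unadjusted p under 0.05 there was 1 member, Hao1, against 8.17% of all genes. Hao1 was not under 0.05 with quantile normalization or median-of-ratios scaling. Pex3, higher in iAsF1-M, was the only such member there, beside 683 and 638 of the 9695 genes. Hao1 was also lost when any 1 liver other than iAsF1-M 3 was left out. The only member under 0.05 was then Vnn1 without conF1-M 1, Crot without iAsF1-M 1 and Agxt without iAsF1-M 2. These stood beside 399 of 9687, 639 of 9732 and 645 of 9707 genes. Without conF1-M 2 or conF1-M 3 there was no such member, beside 511 of 9659 and 835 of 9718 genes. Library weights gave 5 members, all lower (Hao1, Gnpat, Pecr, Pex6 and Slc25a17), beside 1135 of the 9695 genes, 957 of them lower. Groups did not overlap for 3 of the 45 members, Hao1 and Pex6 with iAsF1-M below and Pex3 with iAsF1-M above, against 14.2% of all genes. Log2 fold changes were below 0 in 30 of 45 members, near the background of 69.6% of all genes, and this direction depended on the scaling: the count was 21 of 45 under quantile normalization and 18 of 45 under median-of-ratios scaling. The median log2 fold change was -0.04 in the 33 metabolic genes and -0.08 in the 12 Pex genes, beside -0.07 in all genes. Under quantile normalization these medians were 0.01, -0.01 and -0.004.

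A test that calls no gene does not show that the levels are equal, so the intervals matter. The 95% interval of the log2 fold change lay within 0.5 of 0 in 20 of 33 metabolic genes and 11 of 12 Pex genes, against 77.3% of all genes tested. The fitted changes ran from -0.31 for Pecr to 0.30 for Vnn1. The spread within groups (residual SD of log2 values) had a median of 0.14 in the members and 0.13 in all genes tested. Without iAsF1-M 3, again 0 of 45 members passed in limma, while 0.752% of all genes did, and 6 members were under an unadjusted p of 0.05, against 16.9% of all genes. All 6 were lower in iAsF1-M livers (Pecr, Hao1, Gnpat, Pex7, Slc25a17 and Pex6), against 13.3% of all genes in that direction and 3.6% in the other. Log2 fold changes were then below 0 in 27 of 45 members and 67.6% of all genes.

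**Figure D2:**
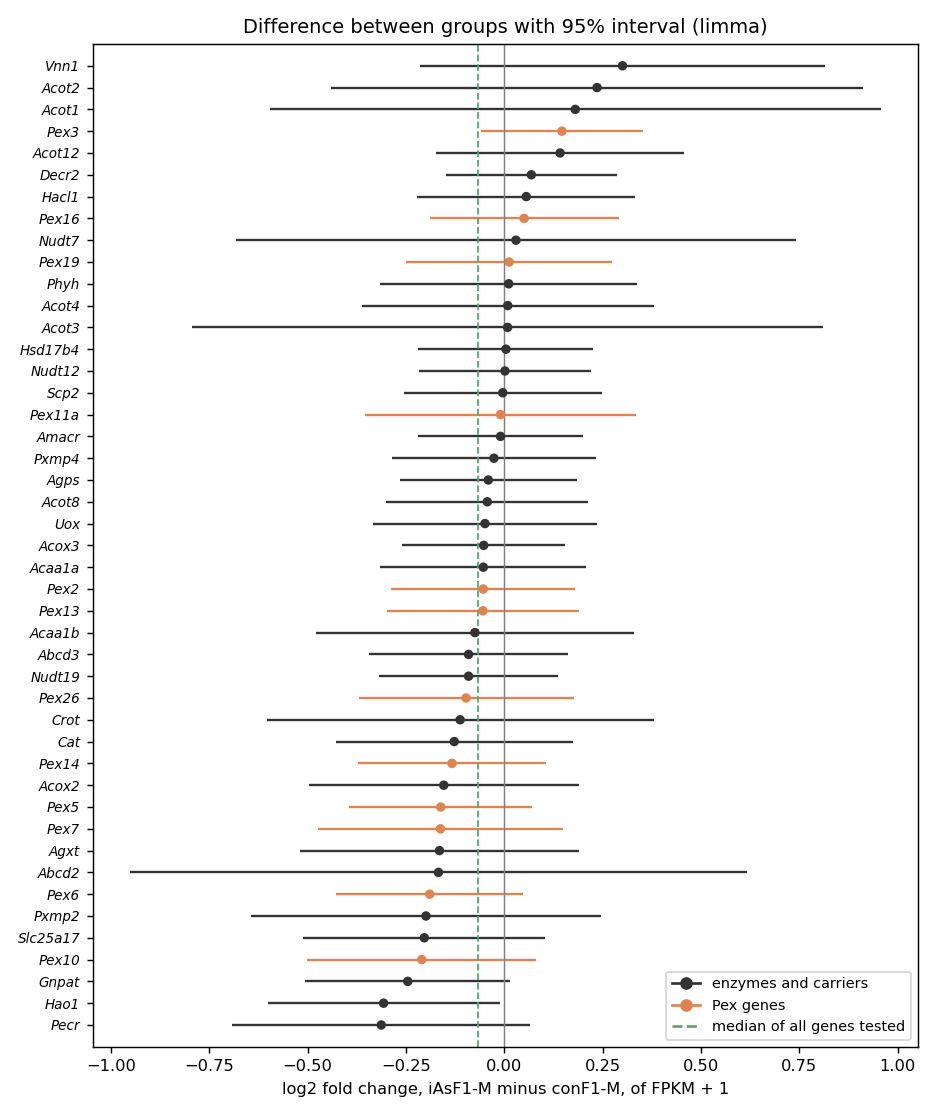
Log2 fold change of FPKM + 1, iAsF1-M minus conF1-M, for the 45 tested genes with 95% intervals from limma (n = 3 livers per group), sorted by size, with the median of all 9695 genes dashed. Hao1 alone has an interval that leaves out 0, from -0.60 to -0.01, and the widest intervals belong to Abcd2, Acot1, Acot2, Acot3 and Nudt7.

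Uptake starts at the membrane with the ABC transporters ABCD2 and ABCD3, which carry acyl-CoA. Abcd3, the main one in liver, stood at 275.31, 277.09 and 246.37 FPKM in conF1-M livers and 276.39, 232.75 and 241.68 FPKM in iAsF1-M livers, and the groups overlapped (log2 fold change -0.09, 95% interval -0.34 to 0.16, limma adjusted p = 0.80). Abcd2 was at 3.61, 3.34 and 2.41 FPKM and at 1.05, 3.1 and 4.73 FPKM. iAsF1-M livers thus held both the lowest and the highest Abcd2 value, 4.50-fold apart, and the log2 fold change of -0.17 turned to 0.25 without iAsF1-M 1. Slc25a17, a carrier of CoA and related cofactors, was 30.3 ± 2.5 FPKM in conF1-M livers and 26.4 ± 4.64 FPKM in iAsF1-M livers (log2 fold change -0.20, limma adjusted p = 0.65). Pxmp2, a channel for small solutes, was 65.58 FPKM in iAsF1-M 1 and between 94.52 and 115.97 FPKM in the other 5 livers (log2 fold change -0.20, limma adjusted p = 0.75). Pxmp4, a membrane protein of less known role, was 49.2 ± 4.18 FPKM and 48.4 ± 5.41 FPKM.

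In straight-chain beta-oxidation, the thiolases cleave the shortened chain. Acaa1b, one of the pair of mouse peroxisomal thiolases, was 997.38, 653.74 and 689.72 FPKM in conF1-M livers and 762.06, 761.61 and 663.21 FPKM in iAsF1-M livers. The high conF1-M value came from 1 liver, conF1-M 1, and the log2 fold change of -0.07 (95% interval -0.48 to 0.33, limma adjusted p = 0.90) turned to 0.12 without it. Acaa1a was 101.09, 96.28 and 102.9 FPKM and 90.17, 112 and 88.64 FPKM (log2 fold change -0.05, limma adjusted p = 0.89). Acaa1b thus exceeded Acaa1a in every liver, 7.79 ± 1.80 times in conF1-M and 7.58 ± 0.830 times in iAsF1-M livers. The pair lies 182583 bases apart on chromosome 9 of GRCm38, and 19.3% of the stretches of 100 bases in Acaa1b transcripts also occur in Acaa1a, so the split of reads between them is uncertain. Acox3, an acyl-CoA oxidase, was low, between 5.19 and 6.21 FPKM in the 6 livers.

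Pecr, the peroxisomal trans-enoyl-CoA reductase, had the lowest fold change of the members. Levels were 138.64, 144.6 and 136.11 FPKM in conF1-M livers and 91.96, 105.58 and 145.83 FPKM in iAsF1-M livers. iAsF1-M 1 and 2 lay below every conF1-M liver and iAsF1-M 3 above, at a log2 fold change of -0.31 (standard error 0.16, 95% interval -0.69 to 0.07, limma adjusted p = 0.62). Without iAsF1-M 3 it was -0.50 with a limma adjusted p of 0.085. Decr2, the peroxisomal dienoyl-CoA reductase that removes double bonds of unsaturated chains, was 149 ± 7.80 FPKM in conF1-M livers and 157 ± 8.65 FPKM in iAsF1-M livers.

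The enzymes of branched-chain and bile acid side-chain oxidation were among the steadiest. Scp2, which encodes a thiolase and sterol carrier protein, stood at 1473.34, 1599.8 and 1583.43 FPKM in conF1-M livers and 1534.58, 1518.22 and 1588.49 FPKM in iAsF1-M livers, 1.09-fold from lowest to highest, the narrowest of the 46 genes. Its log2 fold change was -0.004 with a 95% interval of -0.26 to 0.25. Phyh, the hydroxylase that opens alpha-oxidation of phytanic acid, was 1814 ± 120 FPKM and 1837 ± 260 FPKM, the highest level of the members. Hacl1, the lyase of the same route, was 95.1 ± 11.2 FPKM and 98.6 ± 8.66 FPKM. Amacr, the racemase that readies branched chains for oxidation, and Hsd17b4, the multifunctional protein that hydrates and dehydrogenates them, ranged from 119.14 to 133.56 FPKM and from 200.32 to 226.83 FPKM over the 6 livers. Acox2, the branched-chain oxidase of bile acid synthesis, was more variable, 63.0 ± 8.35 FPKM in conF1-M livers and 56.7 ± 9.0 FPKM in iAsF1-M livers (log2 fold change -0.15, limma adjusted p = 0.75). In these 6 genes each 95% interval lay within 0.5 of 0.

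Thioesterases free the acid from CoA, and their levels differed more between mice than between groups. Of the 11 genes of thioesterases, carnitine transfer and nudix hydrolases, 8 had a log2 fold change above 0, and none passed. The count was 9 under quantile normalization and under median-of-ratios scaling, 6 with library weights, 5 without conF1-M 3 (median -0.03) and 4 without iAsF1-M 2 (median -0.06), against a median of 0.01 with all livers. Acot1, which encodes a cytosolic acyl-CoA thioesterase, was 126.81, 60.34 and 70.03 FPKM in conF1-M livers and 91.62, 135.39 and 63.14 FPKM in iAsF1-M livers. Acot2, its mitochondrial relative, was 12.06, 6.76 and 5.51 FPKM and 8.19, 13.38 and 7.15 FPKM. conF1-M 1 and iAsF1-M 2 were the high livers for both genes, 1 in each group. The peroxisomal Acot3 was 80.57, 48.86 and 28.14 FPKM in conF1-M livers and 37.14, 54.41 and 56.05 FPKM in iAsF1-M livers, so the conF1-M livers alone spanned 2.86-fold and held both extremes. The peroxisomal Acot4 was 35.17, 28.84 and 22.64 FPKM and 25.54, 31.39 and 29.22 FPKM, with the same high and low conF1-M livers as Acot3.

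Log2 fold changes were 0.18 for Acot1 (95% interval -0.60 to 0.96), 0.24 for Acot2 (-0.44 to 0.91), 0.01 for Acot3 (-0.79 to 0.81) and 0.01 for Acot4 (-0.36 to 0.38), with limma adjusted p from 0.80 to 0.99. Leaving out 1 liver at a time turned the sign of each of the 4, from -0.37 to 0.37 in the case of Acot3. The 4 genes lie side by side on chromosome 12 of GRCm38, Acot2 from 83987861 to 83993873, Acot1 from 84009490 to 84018371, Acot4 from 84038379 to 84048601 and Acot3 from 84052144 to 84060402, all on the plus strand. Of the stretches of 100 bases in Acot2 transcripts, 17.1% also occur in Acot1, so their split of reads is uncertain. Acot4 and Acot3 also overlap a pair of other annotated genes, Gm49366 and 4732463B04Rik, whose reads may be shared. Acot8, another peroxisomal thioesterase, ranged from 12.66 to 16.29 FPKM, and Acot12, a cytosolic acetyl-CoA hydrolase, was 88.1 ± 7.86 FPKM in conF1-M livers and 98.0 ± 16.5 FPKM in iAsF1-M livers (log2 fold change 0.14, limma adjusted p = 0.75).

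PPARα binds with its partner RXR to a direct repeat, a pair of AGGTCA in the same direction with 1 base of any kind between, and promoter windows of the members were searched for it on both strands. RefSeq windows on GRCm38.p6, from 250 bases before to 50 after a start, were available for 38 of the 46 members (45 windows). No member window held the full repeat, which 0.0396% of all 32851 windows did. With up to 1 mismatch outside that base it was found in Acot12 (2.22% of member windows, 0.554% of all), and with up to 2 in Acot12, Acot4, Cat and Acox2 (8.89% and 3.86%). In Acox2 the match begins 9 bases after a start. The 250 bases before the start are printed for the other 3, since their matches lie before it. They run 5′ to 3′ on the strand of the gene, with the letters aligned to the repeat, mismatches included, in capitals.
Acot12 (chr13:91741271-91741520, plus strand, 1 mismatch on the opposite strand): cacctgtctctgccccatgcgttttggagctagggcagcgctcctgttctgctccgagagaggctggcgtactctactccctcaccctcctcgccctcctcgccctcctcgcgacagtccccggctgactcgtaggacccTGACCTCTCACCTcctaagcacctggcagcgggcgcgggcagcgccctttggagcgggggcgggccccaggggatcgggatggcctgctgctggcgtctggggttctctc
Acot4 (chr12:84038129-84038378, plus strand, 2 mismatches on the opposite strand): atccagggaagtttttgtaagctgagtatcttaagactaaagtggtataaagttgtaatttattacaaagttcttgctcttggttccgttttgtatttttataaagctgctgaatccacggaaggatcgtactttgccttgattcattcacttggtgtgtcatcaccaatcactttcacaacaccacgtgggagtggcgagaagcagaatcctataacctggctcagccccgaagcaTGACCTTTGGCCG
Cat (chr2:103485154-103485403, minus strand, 2 mismatches on the strand of the gene): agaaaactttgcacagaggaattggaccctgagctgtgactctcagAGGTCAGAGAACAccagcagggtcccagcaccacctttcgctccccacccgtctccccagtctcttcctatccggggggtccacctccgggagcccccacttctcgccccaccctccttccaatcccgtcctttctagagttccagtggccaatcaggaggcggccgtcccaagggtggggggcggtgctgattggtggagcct
These matches describe the letters only. Of the 3 genes, Acot12 was highest in iAsF1-M 2, Acot4 in conF1-M 1 and Cat in iAsF1-M 3, so they did not share their high liver.

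Carnitine transfer and CoA turnover showed the other wide spreads. Nudt7, a peroxisomal CoA diphosphatase, was 219.62, 329.55 and 313.57 FPKM in conF1-M livers and 478.99, 233.3 and 215.89 FPKM in iAsF1-M livers. Crot, the octanoyltransferase that exports shortened chains as carnitine esters, was 344.3, 291.52 and 270.37 FPKM and 386.62, 256.96 and 216.01 FPKM. For both genes iAsF1-M 1 was the highest liver of the 6 and iAsF1-M 3 the lowest, so the group means lay close. Log2 fold changes were 0.03 for Nudt7 (95% interval -0.68 to 0.74) and -0.11 for Crot (-0.60 to 0.38), and that of Nudt7 was -0.33 without iAsF1-M 1.

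Vnn1, a pantetheinase that releases the CoA precursor pantothenate, had the highest fold change of the members. It was 100.15, 58.37 and 53.59 FPKM in conF1-M livers and 90.44, 86.08 and 75.87 FPKM in iAsF1-M livers. conF1-M 1 was above all iAsF1-M livers and the other conF1-M livers below them, at a log2 fold change of 0.30 (standard error 0.22, 95% interval -0.21 to 0.82, limma adjusted p = 0.68). Without conF1-M 1 it was 0.58, at an unadjusted p under 0.05 in limma, beside 399 of 9687 genes. The lowest limma adjusted p of the metabolic genes was then 0.985. Nudt19, another CoA diphosphatase, ranged from 21.89 to 27.48 FPKM (log2 fold change -0.09, limma adjusted p = 0.77), and Nudt12, which hydrolyses NADH, from 27.69 to 32.46 FPKM.

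**Figure D3:**
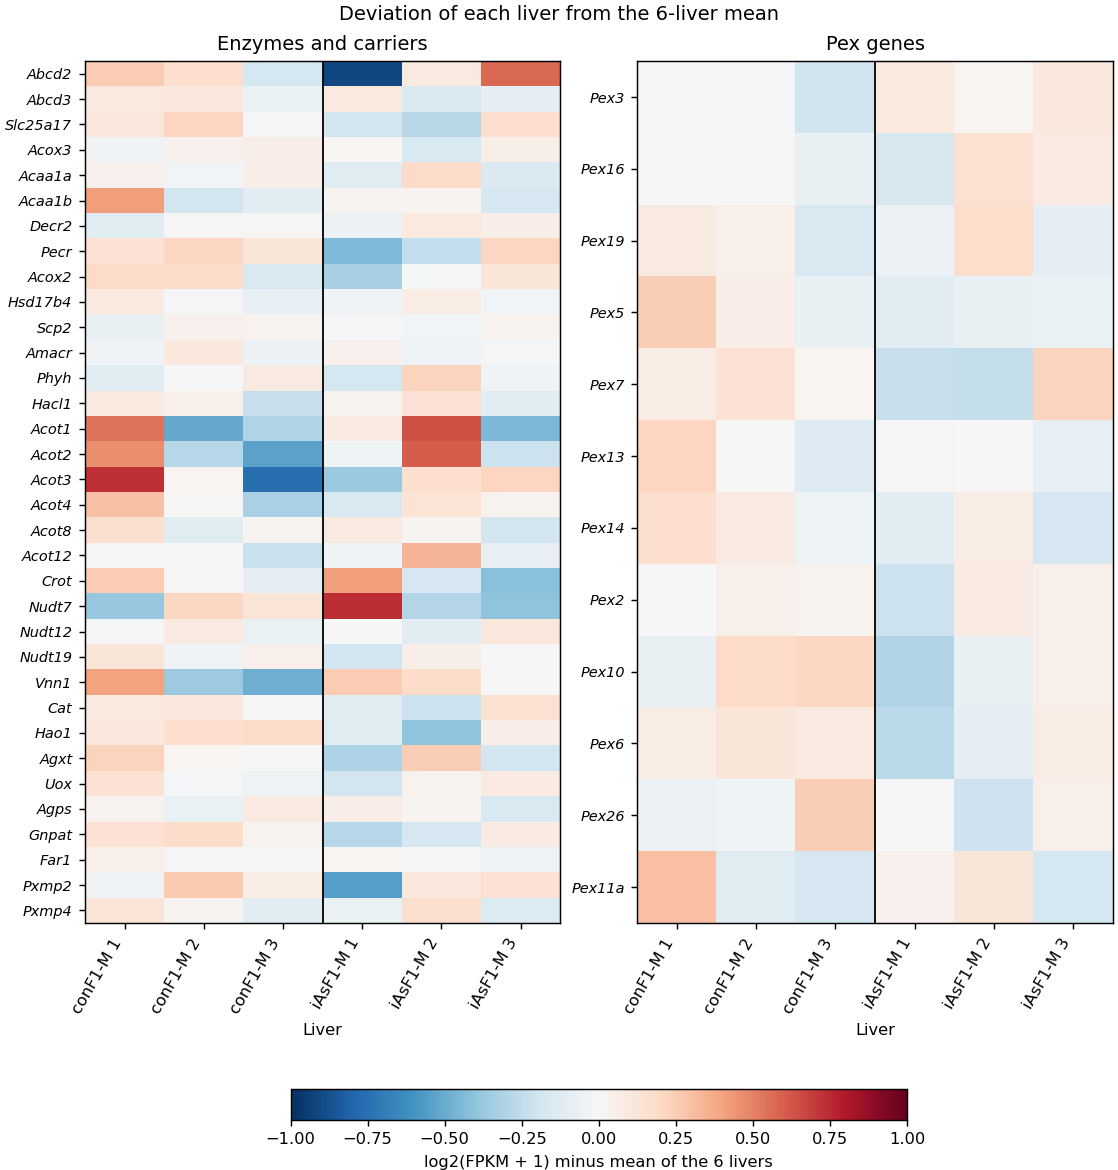
Log2(FPKM + 1) of each gene in each liver minus its mean over the 6 livers, with red above and blue below that mean and a line between the groups. Acot1 and Acot2 are red in conF1-M 1 and iAsF1-M 2, Nudt7 and Crot in iAsF1-M 1, and most other genes are pale in all livers.

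Among the genes of hydrogen peroxide, glyoxylate and urate, Hao1 had no overlap between the groups, beside 11.8% of all genes tested with iAsF1-M below. Log2 fold changes were below 0 in 4 of these 4 genes, or 3 of 4 under median-of-ratios scaling and without conF1-M 1 or iAsF1-M 1, and none passed. Hao1 encodes glycolate oxidase, which makes glyoxylate and hydrogen peroxide, and lies on chromosome 2 of GRCm38 from 134497361 to 134554368 (ENSMUSG00000027261). Levels were 93.8, 97.83 and 98.94 FPKM in conF1-M livers and 79.67, 65.52 and 91.18 FPKM in iAsF1-M livers. Every iAsF1-M liver lay below every conF1-M liver, iAsF1-M 3 by the least. Means were 96.9 ± 2.70 FPKM and 78.8 ± 12.9 FPKM, a log2 fold change of -0.31 (standard error 0.13, 95% interval -0.60 to -0.01) (limma unadjusted p = 0.043, adjusted p = 0.60). Without iAsF1-M 3 it was -0.42 (limma adjusted p = 0.14) and without iAsF1-M 2 -0.18, the lowest and highest values with 1 liver left out.

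Agxt, the aminotransferase that turns glyoxylate to glycine, was 146.47, 127.56 and 125.96 FPKM in conF1-M livers and 101.16, 148.73 and 110.68 FPKM in iAsF1-M livers, with the groups overlapping (log2 fold change -0.16, limma adjusted p = 0.75). Hao1 was lowest and Agxt highest in the same liver, iAsF1-M 2. Cat, which encodes catalase, was 1189.54, 1196.68 and 1110.47 FPKM in conF1-M livers and 1023.18, 958.8 and 1236.24 FPKM in iAsF1-M livers. iAsF1-M 1 and 2 were below and iAsF1-M 3 above all conF1-M livers, as in Pecr (log2 fold change -0.13, 95% interval -0.43 to 0.17, limma adjusted p = 0.77). Uox, the urate oxidase that mice have and humans lack, was 886 ± 65.4 FPKM and 858 ± 85.6 FPKM. Cat exceeded Uox in every liver, 1.32 ± 0.0777 times in conF1-M and 1.25 ± 0.156 times in iAsF1-M livers.

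Ether lipid synthesis was low at the transcript level. Gnpat, which acylates dihydroxyacetone phosphate in the opening step, was 15.09, 15.57 and 13.93 FPKM in conF1-M livers and 10.93, 11.98 and 14.43 FPKM in iAsF1-M livers. iAsF1-M 1 and 2 lay below the conF1-M livers and iAsF1-M 3 within them (log2 fold change -0.25, standard error 0.11, 95% interval -0.51 to 0.01, limma adjusted p = 0.62). Without iAsF1-M 3 it was -0.35 (limma adjusted p = 0.15). Agps, the synthase of the next step, ranged from 1.33 to 1.75 FPKM. Far1, the reductase that supplies the fatty alcohol, ranged from 0.29 to 0.39 FPKM, below the minimum for the test.

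The 3 Pex genes for membrane assembly had log2 fold changes above 0, with a median of 0.05, and none passed. All 3 were also above 0 under quantile normalization and median-of-ratios scaling, 2 of 3 with library weights or without conF1-M 3, and 1 of 3 without iAsF1-M 2, where the median was -0.01. Pex3, the membrane anchor that receives PEX19 with its cargo, was 16.01, 15.77 and 13.82 FPKM in conF1-M livers and 17.23, 16.21 and 17.27 FPKM in iAsF1-M livers. Every iAsF1-M liver lay above every conF1-M liver, the closest pair being 16.01 and 16.21 FPKM. Its log2 fold change was 0.15 (standard error 0.09, 95% interval -0.06 to 0.35, limma adjusted p = 0.63), and it overlaps Adat2 of the opposite strand, with which it may share reads. Pex16, which helps place Pex3 in the membrane, was 44.2 ± 1.42 FPKM and 46.0 ± 5.18 FPKM. Pex19, the chaperone of membrane proteins, was 61.4 ± 5.52 FPKM and 62.0 ± 6.72 FPKM.

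The import receptors and docking proteins had log2 fold changes below 0 in 4 of 4 genes, with a median of -0.15, and none passed. The count below 0 was 3 of 4 under quantile normalization, at a median of -0.08, under median-of-ratios scaling and without conF1-M 1. Pex5, the receptor for the common C-terminal signal, was 33.91, 29.76 and 26.97 FPKM in conF1-M livers and 26.37, 26.92 and 27.08 FPKM in iAsF1-M livers. The iAsF1-M livers lay close together at the lower end of the conF1-M range and overlapped it at conF1-M 3 (log2 fold change -0.16, 95% interval -0.39 to 0.07, limma adjusted p = 0.64). Pex7, the receptor for the N-terminal signal of thiolase, PHYH and AGPS, was 30.51, 32.07 and 29.22 FPKM and 24.5, 24.32 and 33.8 FPKM, with iAsF1-M 3 above all conF1-M livers. Its log2 fold change was -0.16 with all livers (95% interval -0.47 to 0.15, limma adjusted p = 0.72) and -0.31 without iAsF1-M 3 (limma adjusted p = 0.16). The receptors were at like levels, with a ratio of Pex5 to Pex7 of 0.987 ± 0.107 in conF1-M and 0.995 ± 0.168 in iAsF1-M livers. Of the docking complex, Pex13 was 18.4 ± 2.36 FPKM and 17.6 ± 0.656 FPKM, and Pex14 37.3 ± 2.89 FPKM and 33.9 ± 3.16 FPKM.

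Receptors return to the cytosol after a ring of ubiquitin ligases marks them and an ATPase pulls them out. Pex6, an ATPase subunit on chromosome 17 of GRCm38 from 46711463 to 46725541, was 17.55, 18.11 and 17.76 FPKM in conF1-M livers and 13.61, 15.56 and 17.53 FPKM in iAsF1-M livers. The groups did not overlap, but iAsF1-M 3 lay 0.02 FPKM under the lowest conF1-M liver (log2 fold change -0.19, standard error 0.10, 95% interval -0.43 to 0.05, limma adjusted p = 0.62). It was -0.27 without iAsF1-M 3 (limma adjusted p = 0.22), and Pex6 lies within the annotated Gm26904 on its strand, so reads may be shared. Pex10, a ligase of the ring, was 1.83, 2.4 and 2.44 FPKM and 1.43, 1.84 and 2.1 FPKM (log2 fold change -0.21, limma adjusted p = 0.62). Its partner Pex2 was 15.4 ± 0.333 FPKM in conF1-M livers and 14.8 ± 1.73 FPKM in iAsF1-M livers, and Pex26, the anchor of the ATPase, 7.40 ± 1.05 FPKM and 6.84 ± 0.731 FPKM. Pex11a, which elongates peroxisomes before division and is the most abundant Pex gene here, was 126.77, 94.19 and 91.25 FPKM in conF1-M livers and 105.58, 111.77 and 90.49 FPKM in iAsF1-M livers. As in Acaa1b, conF1-M 1 was highest, and the log2 fold change was -0.01 (95% interval -0.36 to 0.34, limma adjusted p = 0.99).

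Mice of the same group differed by more than the groups did in several of these genes. The ratio of the highest to the lowest of the 6 livers had a median of 1.38 in metabolic genes, from 1.09 in Scp2 to 4.50 in Abcd2, and of 1.29 in Pex genes, from 1.24 to 1.71 in Pex10. The ratio was over 2 in 5 genes, Abcd2, Acot3, Acot2, Acot1 and Nudt7. conF1-M 1 was the highest liver in 13 of the 46 genes and iAsF1-M 2 in 12, while iAsF1-M 1 was the lowest in 14 and conF1-M 3 in 11.

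**Figure D4:**
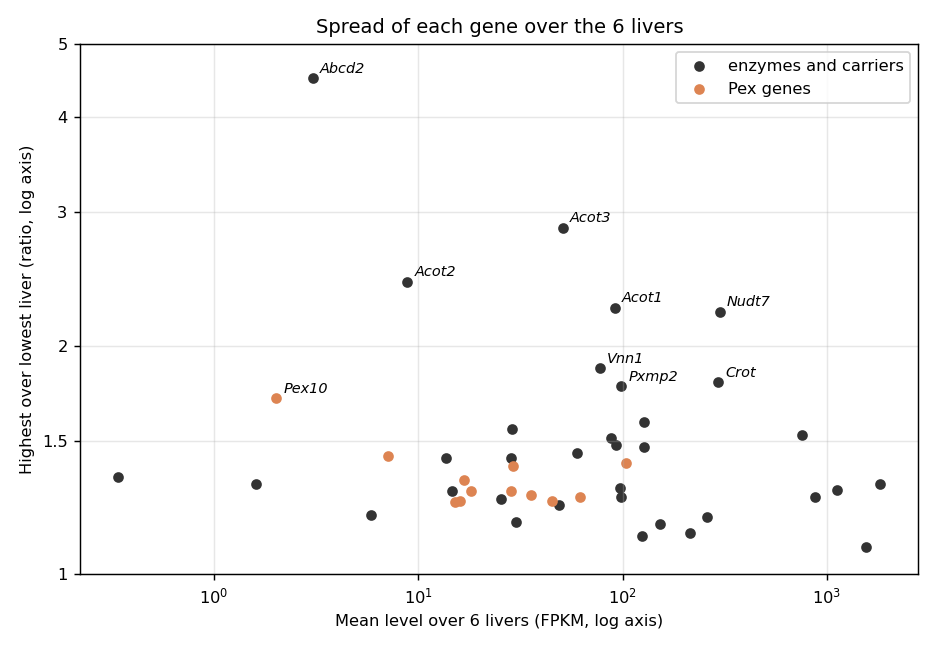
Ratio of the highest to the lowest of the 6 livers for each of the 46 genes (log axis) against its mean level in FPKM (log axis), metabolic genes in black and Pex genes in orange. Genes over 1.6 are named, and most of the others lie below 1.5 at every level.

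A wider list of 56 other genes linked to the peroxisome, not all of them confined to it, was read in the same fit. Of the 49 tested, 0 passed, and 39 had a log2 fold change below 0, beside 69.6% of all genes. Their median was -0.12, beside -0.07 in all genes. It was -0.06 under quantile normalization and -0.05 under median-of-ratios scaling, beside -0.004 and -0.002 in all genes. At an unadjusted p under 0.05 there were 4 in limma, all lower in iAsF1-M livers, against 6.75% of all genes in that direction. There were 2, Acbd4 and Tysnd1, under both scalings, beside 683 and 638 of the 9695 genes. Without iAsF1-M 3 there were 15, of which 14 were lower, beside 16.9% of all genes and 13.3% in that direction. Acbd4, a binder of acyl-CoA at contacts with the endoplasmic reticulum, was 21.03, 17.41 and 16.54 FPKM in conF1-M livers and 12.69, 11.96 and 13.76 FPKM in iAsF1-M livers (log2 fold change -0.48, standard error 0.11, limma adjusted p = 0.51). Tysnd1, the matrix protease that trims imported enzymes, was 19.79, 18.7 and 18.93 FPKM and 15.64, 15.61 and 16.12 FPKM (log2 fold change -0.26, limma adjusted p = 0.57). Neither gene had an overlap between the groups, and iAsF1-M 3 stood with its own group in both.

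Lonp2, the other matrix protease, was 141.58, 130.76 and 117.78 FPKM in conF1-M livers and 108.33, 91.09 and 111.4 FPKM in iAsF1-M livers (log2 fold change -0.33, limma adjusted p = 0.59). Acbd5, a tether to the endoplasmic reticulum named here after its values were seen, was 113 ± 5.60 FPKM and 94.7 ± 6.02 FPKM, with no overlap (log2 fold change -0.25, limma adjusted p = 0.59). Groups did not overlap in 5 of the 49, all with iAsF1-M below, beside 11.8% of all genes in that direction.

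PPARα targets that act outside the peroxisome had log2 fold changes above 0 in 23 of 32 genes, with a median of 0.07, and 0 passed. The count was 27 under quantile normalization and 28 under median-of-ratios scaling, but 14 of 32 without iAsF1-M 2, where the median was -0.03, so the direction of the list turned on that liver. At an unadjusted p under 0.05 there were 0 in limma with all livers, beside 1.42% of all genes in the higher direction, and 8 without iAsF1-M 3, all higher, beside 3.6% of all genes in that direction. Pdk4, a kinase that shuts off pyruvate dehydrogenase, was 1.04, 1.14 and 0.47 FPKM in conF1-M livers and 2.57, 7.26 and 0.88 FPKM in iAsF1-M livers. Angptl4, an inhibitor of lipoprotein lipase, was 55.76, 59.1 and 62.58 FPKM and 79.31, 102.97 and 60.24 FPKM. In both, iAsF1-M 2 was the highest liver and iAsF1-M 3 lay within the conF1-M range, and log2 fold changes were 1.04 and 0.41 (limma adjusted p = 0.62 and 0.61). Ppara itself was 54.4 ± 5.02 FPKM in conF1-M livers and 52.2 ± 0.197 FPKM in iAsF1-M livers. Of 15 receptors and coregulators 0 passed, and those with the smallest p were Nr0b2, at a log2 fold change of 0.46, and Rxra, at -0.14 (limma adjusted p = 0.64 and 0.68).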

How the data were processed

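Liver RNA-seq of 3 conF1-M and 3 iAsF1-M mice was used, grouped by the sample labels. Paired-end reads were filtered for quality by the authors and mapped with HISAT2 to GRCm38. The deposited values are FPKM, rounded to 2 decimals, and the program and annotation behind them are not given in the sources used here. The authors called genes with DESeq2, which needs counts that FPKM do not hold.

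Names and positions came from GENCODE vM21 (GRCm38), which matched 16706 of 16727 identifiers, and 16 identifiers on 2 lines were left out. log2(FPKM + 1) was fitted in R 4.3.3 by lmFit and eBayes of limma 3.58.1 with a variance trend, two-sided, for the 9695 genes averaging 1 FPKM or more, with p adjusted by Benjamini and Hochberg over all of them and a threshold of 0.05. The fit was tested on simulated data. Tables and figures used Python 3.11.15. Members and lists were chosen with earlier results of these data known, so no list was tested as a set. Every tested member was accounted for, and fold changes were given for the 12 metabolic genes and 4 Pex genes with the smallest p and for genes fixed by their role. Nudt7, Abcd2, Scp2 and Acbd5 were added after their values were seen. Pex7, in none of these choices, was also given a fold change, and its sign was not followed through the alternatives below. Mice were treated as independent, and p-values set the group difference against the spread between these mice, pooled in part over all genes tested.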

Additional observations from a re-analysis of the deposited data

How the results depend on the processing

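No member passed under any of the alternatives run (other pseudocounts, filters, scalings, variance models, library weights, a replicate block, a threshold of 0.1 and each liver left out). Neither did any gene of the wider list. The number of genes past the threshold among all genes was 6, and 3 with no filter on low values, where more genes were tested. With 1 liver left out it ran from 3 to 73: it was 3 without conF1-M 1 or conF1-M 2, 13 with conF1-M 3 omitted and 73 with iAsF1-M 3 omitted. Same-numbered livers of the groups had correlations of deviations of 0.17, -0.10 and -0.02, and the other pairs ran from -0.13 to 0.17. With 3 livers per group these cannot show whether the numbers pair the mice. With the replicate block 5 genes and 0 members passed in limma. No member, Hao1 included, was then under an unadjusted p of 0.05, beside 781 of the 9695 genes. The median log2 fold change of the metabolic genes was -0.04 as given and 0.026 under median-of-ratios scaling. It ran from -0.09 to -0.01 with 1 liver left out, and that of the Pex genes from -0.11 to -0.07.
Of the genes given by name, each whose sign turned had a change of under 0.25. Under quantile normalization Acaa1a was at 0.033 and Pex11a at 0.069. Under median-of-ratios scaling Acaa1a was at 0.021, Acaa1b at 0.00017, Pex11a at 0.065 and Scp2 at 0.071. With library weights Acot3 was at -0.081, Acot4 at -0.025 and Pex11a at 0.036. With 1 liver left out, values ran from -0.32 to 0.028 for Pxmp2, from -0.35 to 0.069 for Crot, from -0.16 to 0.0064 for Acaa1a and from -0.19 to 0.12 for Acaa1b. They ran from -0.094 to 0.50 for Acot1, from -0.0085 to 0.53 for Acot2, from -0.37 to 0.37 for Acot3 and from -0.15 to 0.16 for Acot4. The ranges were -0.10 to 0.14 for Pex11a, -0.33 to 0.24 for Nudt7, -0.50 to 0.25 for Abcd2 and -0.041 to 0.018 for Scp2. Causes were not tested. Values of genes below about 1 FPKM, such as Far1, rest on few fragments.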
